A study of Mus musculus with 4 samples.

Results

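The p53 pathway was followed through 10 mouse genes in sensory neurons of the dorsal root ganglion (DRG): *Gadd45a*, *Cdkn1a*, *Ccng1*, *Mdm2*, *Phlda3*, *Bbc3*, *Bax*, *Trp53*, *Trp53inp1*, and *Trp53i11*. They were chosen by gene symbol as p53 itself and genes known as p53 targets or DNA damage genes, with earlier results of these data known. All 10 were found among the 31053 genes of the count matrices. The data are single-cell RNA-seq of DRG cells from *Pirt*EGFPf mice on a C57BL/6 background, in which the *Pirt* promoter drives a green fluorescent protein in most but not all DRG neurons. Animals were 7–8 weeks old and had the sciatic nerves of both sides loosely tied (chronic constriction injury, CCI) or a sham operation on both sides, and GFP+ cells of the lumbar DRGs were sorted at day 7. There were 4 libraries, and values below follow the order Male-Sham, Female-Sham, then Male-CCI and Female-CCI unless another is given. Each library pooled 20 DRGs of 5 mice, so the spread between animals could not be measured and the 2 libraries of a surgery, 1 of each sex, served as its replicates. Littermates had the same surgery, so litter and surgery cannot be told apart.

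p53, the product of *Trp53*, is a transcription factor that is kept scarce by the ubiquitin ligase Mdm2 and is stabilized, largely at the level of the protein, when DNA is damaged or a cell is under stress. Its target genes stop the cell cycle, help in repair, feed back on p53, or start apoptosis through the mitochondria. Several of them, *Gadd45a* and *Cdkn1a* among them, also answer to other stress-activated factors, and both are known to be induced in DRG neurons by nerve injury, where cells no longer divide. Among the genes here, *Gadd45a* encodes a stress sensor of growth arrest and DNA damage, *Cdkn1a* the cyclin-dependent kinase inhibitor p21, and *Ccng1* cyclin G1. *Phlda3* encodes an inhibitor of Akt, *Bbc3* the BH3-only protein Puma, *Bax* the pore-forming effector of apoptosis, and *Trp53inp1* a stress-induced partner of p53. *Trp53i11* is named as a p53-inducible gene, and its function is less well known.

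The bases before the start of the genes the results turn on are shown because p53 acts on its targets through DNA. These are the 250 bases before the RefSeq start, from RefSeq on GRCm38.p6, read 5′ to 3′ on the strand of the gene, and capitals mark a match to the p53 half-site by its consensus. *Gadd45a* is shown for chr6:67037408-67037657 on the minus strand, *Cdkn1a* (the upstream of its 2 starts) for chr17:29090729-29090978 on the plus strand, and *Phlda3* for chr1:135765835-135766084 on the plus strand. *Trp53i11* is shown for chr2:93187298-93187547 on the plus strand, *Mdm2* for chr10:117710759-117711008 on the minus strand, and *Trp53* for chr11:69580109-69580358 on the plus strand.
Gadd45a: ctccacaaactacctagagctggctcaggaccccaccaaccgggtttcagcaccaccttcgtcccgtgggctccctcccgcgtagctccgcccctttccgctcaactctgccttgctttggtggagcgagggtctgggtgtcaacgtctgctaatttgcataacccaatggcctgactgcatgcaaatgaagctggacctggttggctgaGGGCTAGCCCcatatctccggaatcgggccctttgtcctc
Cdkn1a: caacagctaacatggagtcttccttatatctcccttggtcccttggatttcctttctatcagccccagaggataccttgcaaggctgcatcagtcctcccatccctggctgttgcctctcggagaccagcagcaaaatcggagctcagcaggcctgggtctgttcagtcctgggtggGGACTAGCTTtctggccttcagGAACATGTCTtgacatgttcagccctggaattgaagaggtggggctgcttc
Phlda3: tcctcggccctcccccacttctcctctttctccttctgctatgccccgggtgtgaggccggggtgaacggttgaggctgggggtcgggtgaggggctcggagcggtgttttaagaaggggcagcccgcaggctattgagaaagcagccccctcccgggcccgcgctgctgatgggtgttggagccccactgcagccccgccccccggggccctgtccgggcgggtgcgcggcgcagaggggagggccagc
Trp53i11: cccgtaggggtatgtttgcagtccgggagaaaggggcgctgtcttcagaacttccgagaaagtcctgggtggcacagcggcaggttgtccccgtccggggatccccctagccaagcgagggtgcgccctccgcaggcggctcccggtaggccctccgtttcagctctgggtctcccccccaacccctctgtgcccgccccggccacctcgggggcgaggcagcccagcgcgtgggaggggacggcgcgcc
Mdm2: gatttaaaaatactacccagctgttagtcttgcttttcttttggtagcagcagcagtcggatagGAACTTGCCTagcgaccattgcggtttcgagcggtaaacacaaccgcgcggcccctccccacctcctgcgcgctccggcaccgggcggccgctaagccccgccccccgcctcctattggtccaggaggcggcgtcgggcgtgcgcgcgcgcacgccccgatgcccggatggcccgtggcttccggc
Trp53: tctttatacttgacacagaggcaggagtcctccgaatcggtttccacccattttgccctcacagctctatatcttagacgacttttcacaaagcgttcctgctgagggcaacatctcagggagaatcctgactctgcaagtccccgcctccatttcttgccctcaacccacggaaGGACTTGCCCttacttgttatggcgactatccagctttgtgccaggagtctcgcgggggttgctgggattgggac
The *Cdkn1a* window holds 2 half-sites, at 73 to 64 and at 51 to 42 bases before the start, and those of *Gadd45a*, *Mdm2*, and *Trp53* hold 1 each. No half-site was found in these letters for *Phlda3* or *Trp53i11*. There were 12 windows for 9 of the 10 genes, and 1 window of each of 6 genes held the half-site (*Gadd45a*, *Cdkn1a*, *Ccng1*, *Mdm2*, *Bax*, and *Trp53*). Of all 32536 mouse windows of this length, 7.12% held it. The genes were chosen as p53 itself and known p53 targets or DNA damage genes, so this is no result about the list. Searched on both strands in the same way, the AP-1 motif TGANTCA was in 0 of the 12 windows and in 6.73% of all windows, and the CRE motif TGACGTCA was in 0 of the 12 and in 1.56% of all. A match describes letters in this window, and whether p53 binds there was not measured.

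By the annotation of the same build (GENCODE, GRCm38), each gene is protein-coding. *Gadd45a* lies at chr6:67035096-67037457 (minus strand), *Cdkn1a* at chr17:29090976-29100727 (plus), *Ccng1* at chr11:40748552-40755311 (minus), *Mdm2* at chr10:117688875-117710758 (minus), and *Phlda3* at chr1:135766119-135769136 (plus). *Bbc3* lies at chr7:16308393-16318205 (plus), *Bax* at chr7:45461697-45466898 (minus), *Trp53* at chr11:69580359-69591873 (plus), *Trp53inp1* at chr4:11156431-11174379 (plus), and *Trp53i11* at chr2:93187548-93201759 (plus). *Bax* overlaps the gene *Gm45808* on its own strand, so reads of both genes may not be told apart in its count.

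The deposited libraries held 5019, 8035, 4019, and 6618 cells and 195684124 to 237069156 unique molecular identifiers (UMIs), and 3281, 5398, 2817, and 3637 neurons were kept after filters, with satellite glia-like (SGC-like) cells set apart. Neuronal classes were named X-like from marker genes of each cluster. A neuron was called Sprr1a+ when its log-normalized *Sprr1a* value was above 1, *Sprr1a* being a gene that injured neurons turn on. Sprr1a+ neurons numbered 42, 144, 1467, and 1789, or 1.28%, 2.67%, 52.1%, and 49.2% of the neurons. Median depth was 65571.5, 45234, 60287, and 45680 UMIs in Sprr1a+ neurons and 45022, 32126.5, 51202.5, and 40010 UMIs in Sprr1a- neurons. As checks of the labels, *Atf3*, an injury-induced transcription factor, was 2.37 higher on the log2 scale in CCI than in sham over all neurons, and *Sprr1a* was 4.57 higher. Libraries shared 215 to 513 cell barcodes per pair before the filters and 0 to 6 after them.

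Over all neurons, 5 of the 10 genes rose after CCI: *Trp53i11*, *Gadd45a*, *Phlda3*, *Cdkn1a*, and *Mdm2*. None fell. Levels are CPM, the UMIs of a gene out of each 1000000 UMIs summed over the neurons of a library, which weights cells by their depth, and in such sums more expressing cells and more RNA per cell cannot be told apart. A gene was called changed at an adjusted p below 0.05 and a log2 difference above 0.5 in the quasi-likelihood test of edgeR, adjusted by Benjamini and Hochberg's method for the 17233 genes tested (2 libraries against 2). By this rule 15.2% of all genes were called higher in CCI and 12.7% lower. The median log2 difference of the 10 genes was 0.52, against -0.01 over all genes.

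Of the genes of growth arrest, *Gadd45a* and *Cdkn1a* rose and *Ccng1* was not called. *Gadd45a* was at 44.2 and 49.6 CPM in sham and at 306 and 296 CPM in CCI, a mean of 46.9 ± 3.80 against 301 ± 6.77 (SD, n = 2). The groups were far apart, with a log2 difference of 2.74 ± 0.07 (SE; adjusted p = 3.93e-06, edgeR). *Cdkn1a* was at 129 and 131 CPM in sham and at 441 and 425 CPM in CCI, and its log2 difference was 1.79 ± 0.05 (adjusted p = 3.93e-06, edgeR). Male and female libraries of a surgery differed little from each other for both genes. *Ccng1* was at 47.8, 48.9, 63.9, and 56.7 CPM. Both CCI libraries lay above both sham libraries, but its log2 difference of 0.38 was under the limit of 0.5 (adjusted p = 0.0028, edgeR), so it was not called.

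Of the genes that feed back on p53 or on survival signals, *Phlda3* was at 17.2 and 18.3 CPM in sham and at 83.4 and 70.7 CPM in CCI, with a log2 difference of 2.17 ± 0.09 (adjusted p = 2.58e-05, edgeR). *Mdm2* was at 22.4 and 23.4 CPM in sham and at 33.2 and 34.3 CPM in CCI, a smaller log2 difference of 0.62 ± 0.05 (adjusted p = 0.000115, edgeR) with no overlap between the groups. Apart from these genes, *Trp53i11*, whose function is less well known, rose from 1.95 and 2.15 CPM to 31.6 and 33.2 CPM. Its log2 difference of 4.03 ± 0.08 (adjusted p = 1.58e-06, edgeR) was the greatest of the 10. *Trp53inp1* was at 9.72, 10.1, 13.4, and 12.4 CPM, a log2 difference of 0.43 that was not called (adjusted p = 0.0021, edgeR).

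The genes of apoptosis and *Trp53* itself did not pass. *Bbc3* was at 14.6, 12.6, 16.6, and 16.3 CPM, with a log2 difference of 0.34 (adjusted p = 0.0096, edgeR). *Bax* was at 154, 153, 164, and 171 CPM, with a log2 difference of 0.18 (adjusted p = 0.019, edgeR). *Trp53* was at 17.0, 16.8, 16.9, and 16.0 CPM, and its 4 libraries overlapped, with a log2 difference of 0.02 ± 0.06 (adjusted p = 0.84, edgeR). Counts of calls did not differ from these 5 in the 11 alternatives run for this comparison.

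**Figure D1:**
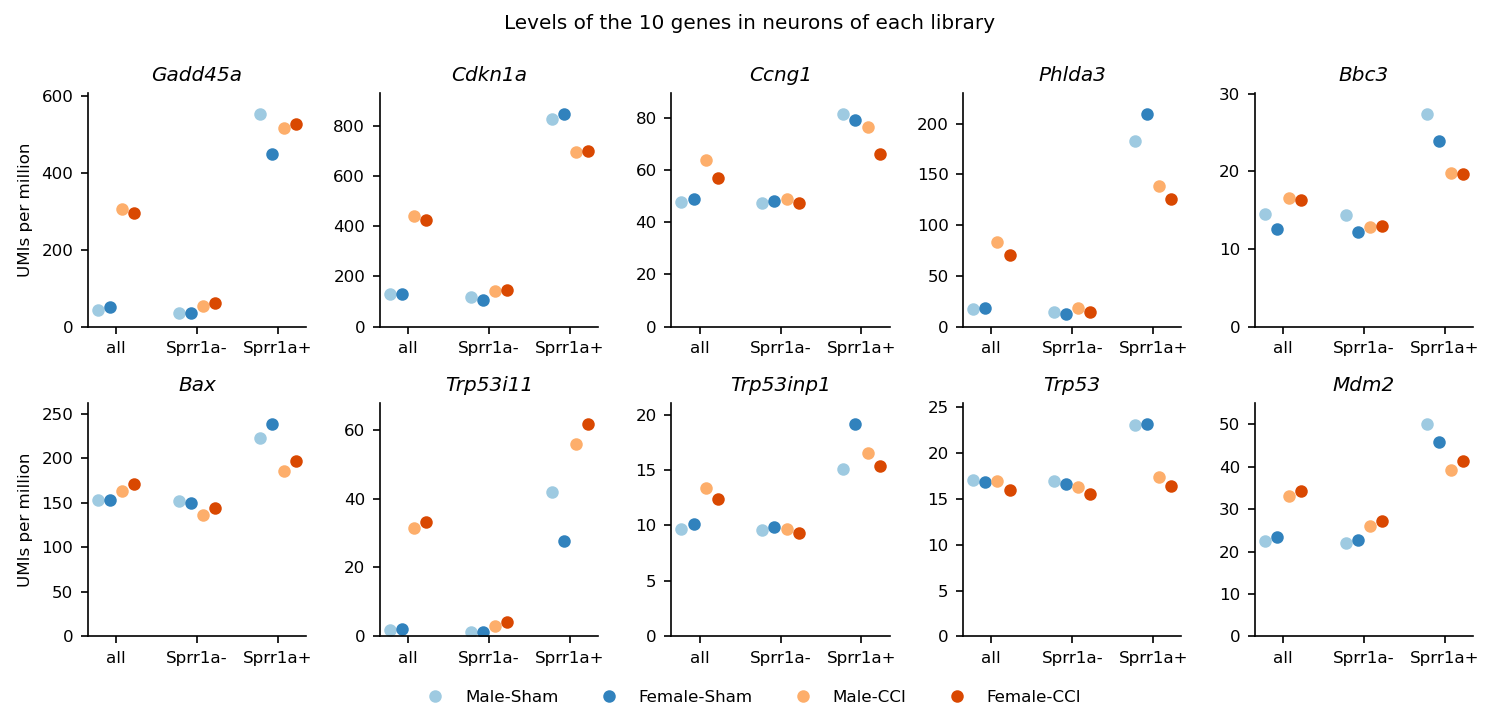
Level of each of the 10 genes in the 4 libraries, in CPM, for all neurons, Sprr1a+ neurons, and Sprr1a- neurons; each point is 1 library. *Gadd45a* sits at 44.2 and 49.6 in sham and at 306 and 296 in CCI over all neurons, and *Trp53* at 16.0 to 17.0 in all 4 libraries.

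The split of the CCI ganglia by *Sprr1a* asked whether the difference lay between injured and spared neurons of the same library. Within CCI libraries, 9 of the 10 genes were higher in Sprr1a+ than in Sprr1a- neurons, all but *Trp53*, where 20.9% of the 16241 genes tested were called higher and 24.7% lower. The same edgeR test was used with the library as a term, and the median log2 difference of the 10 genes was 0.85 against 0.00 over all genes. The split is made on a measured gene, so *Sprr1a* itself is no result here, and the 2 sets differ in class make-up: CCI-induced-like (CCI-ind-like) neurons were 965 of 1467 and 1151 of 1789 Sprr1a+ neurons, and 28 of 1350 and 47 of 1848 Sprr1a- neurons in Male-CCI and Female-CCI.

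*Gadd45a* was at 519 and 528 CPM in Sprr1a+ neurons of Male-CCI and Female-CCI and at 54.6 and 60.3 CPM in their Sprr1a- neurons, a log2 difference of 3.36 ± 0.04 (adjusted p = 5.02e-12, edgeR). *Cdkn1a* was at 694 and 699 CPM against 143 and 147 CPM, a log2 difference of 2.44 ± 0.03 (adjusted p = 1.59e-12, edgeR). *Phlda3* was at 139 and 126 CPM against 18.2 and 14.4 CPM, a log2 difference of 3.20 ± 0.05 (adjusted p = 4.65e-10, edgeR). In each of these 3 genes the sets were far apart in both sexes. *Trp53i11* was at 55.8 and 61.5 CPM against 2.96 and 4.28 CPM, a log2 difference of 4.19 ± 0.09 (adjusted p = 6.79e-08, edgeR).

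The other 5 genes called had smaller differences: 0.92 for *Trp53inp1*, 0.79 for *Bbc3*, 0.77 for *Mdm2*, 0.74 for *Ccng1*, and 0.62 for *Bax*, on the log2 scale. *Bax*, the apoptosis effector, was at 186 and 197 CPM against 137 and 145 CPM, and it lost its call when sums were scaled by total UMIs (0.45) or when Sprr1a+ meant any *Sprr1a* UMI (0.50). *Trp53* was at 17.4 and 16.4 CPM against 16.3 and 15.6 CPM, a log2 difference of 0.26 (adjusted p = 0.0011, edgeR) that was under the limit. With total UMIs in place of edgeR's TMM scaling, an alternative added after the data were seen, the median over all genes moved to -0.17, the *Trp53* difference was 0.09 (adjusted p = 0.157, edgeR), and the calls over all genes went from 3394 higher and 4007 lower to 2577 higher and 5003 lower.

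Across bins of normalized *Sprr1a* the step was sharp. In Male-CCI, *Gadd45a* was at 40.7 CPM in neurons without a *Sprr1a* UMI, at 59.4 CPM for values up to 1, at 411 CPM from 1 to 2, at 457 CPM from 2 to 3, and at 541 CPM above 3. In Female-CCI the same bins were at 41.8, 68.1, 421, 487, and 558 CPM. So most of the difference in *Gadd45a* fell between the bins on either side of 1, and the levels went up with *Sprr1a* on both sides. Median depth in the bins at 0 and up to 1 was 38626 and 57813 UMIs in Male-CCI. In Female-CCI it was 31275 and 46365 UMIs. The part of depth in the rise below the limit was not tested. *Cdkn1a* in Male-CCI was at 145, 142, 584, 651, and 711 CPM, with no rise below the limit, and in Female-CCI at 140, 150, 607, 652, and 728 CPM. *Phlda3* in Female-CCI was at 10.4, 16.0, 95.9, 121, and 132 CPM. *Trp53i11* followed the same order in Female-CCI, at 2.00, 5.24, 48.4, 58.8, and 64.2 CPM. *Trp53* stayed between 14.8 and 17.8 CPM in these bins of the CCI libraries.

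**Figure D2:**
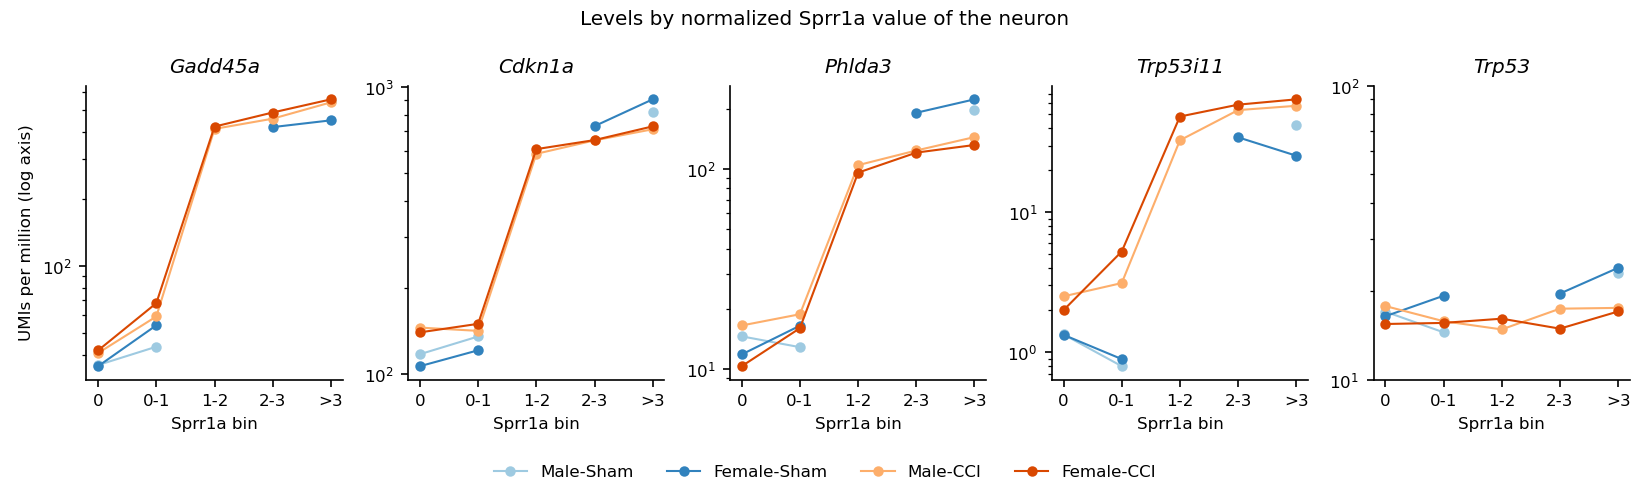
Level of 5 of the genes, in CPM on a log axis, in neurons binned by normalized *Sprr1a* value, 1 colour for each library; bins under 20 cells are left out. *Gadd45a* in Male-CCI goes from 59.4 below the limit of 1 to 411 just above it, and *Trp53* runs flat between 14.8 and 17.8 in CCI.

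The few Sprr1a+ neurons of sham libraries held these transcripts at a high level too. *Gadd45a* was at 553 and 451 CPM in the 42 and 144 Sprr1a+ neurons of Male-Sham and Female-Sham, and at 36.2 and 36.5 CPM in their Sprr1a- neurons. *Cdkn1a* was at 828 and 845 CPM against 118 and 108 CPM, and *Phlda3* at 183 and 209 CPM against 14.5 and 12.1 CPM. For *Gadd45a*, Sprr1a+ neurons of sham and of CCI overlapped; for *Cdkn1a* and *Phlda3* both sham libraries lay above both CCI libraries, and for *Trp53i11*, at 42.0 and 27.8 CPM in sham, both lay below. These orders were not tested. Most of the sham Sprr1a+ neurons, 36 of 42 and 127 of 144, were CCI-ind-like.

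In single cells thinned to 2000 UMIs each, *Gadd45a* was found in 64.3%, 53.5%, 60.9%, and 59.4% of Sprr1a+ neurons and in 6.67%, 6.51%, 8.37%, and 9.85% of Sprr1a- neurons. The 95% exact binomial intervals for Male-CCI were 58.4% to 63.4% and 6.95% to 9.98%, for counting error only. SGC-like cells, taken as a rough background of RNA from outside the cell though they hold transcripts of their own, gave 3.16%, 4.0%, 8.46%, and 10.7%. The 95% exact intervals of these SGC-like shares were wide, at 1.17% to 6.75%, 1.48% to 8.50%, 4.30% to 14.6%, and 5.66% to 18.0%. Sprr1a- neurons lay above this share in both sham libraries and slightly below it in both CCI libraries, with overlapping intervals in each library. Of the 190, 150, 130, and 112 SGC-like cells, 1, 2, 21, and 17 were themselves above the *Sprr1a* limit. How much of the share in Sprr1a- neurons was RNA from outside the cell was not tested, so that share is not read as expression. *Cdkn1a* was found in 81.0%, 85.4%, 71.3%, and 73.2% of Sprr1a+ neurons, in 16.5%, 15.5%, 21.7%, and 22.0% of Sprr1a- neurons, and in 11.3% to 16.8% of SGC-like cells. Both transcripts were found together in 50.0%, 45.8%, 44.0%, and 43.4% of Sprr1a+ neurons and in 1.20%, 1.01%, 2.67%, and 3.08% of Sprr1a- neurons. *Phlda3* was found in 38.1%, 29.2%, 21.7%, and 20.6% of Sprr1a+ neurons and in 2.78%, 2.34%, 3.19%, and 2.27% of Sprr1a- neurons. The shares of Sprr1a+ neurons in CCI were within the 18.8% to 28.0% seen in SGC-like cells, where its level was 115 to 146 CPM. Satellite glia markers, 8 genes with none at 0, summed to 1326, 1647, 882, and 1082 CPM in all neurons and to 101303 to 129659 CPM in SGC-like cells. Within CCI these markers summed to 672 and 970 CPM in Sprr1a+ neurons and to 1131 and 1195 CPM in Sprr1a- neurons, and of the 8, 1 was called higher and 1 lower (median 0.21). Their part in the *Phlda3* difference was not tested.

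**Figure D3:**
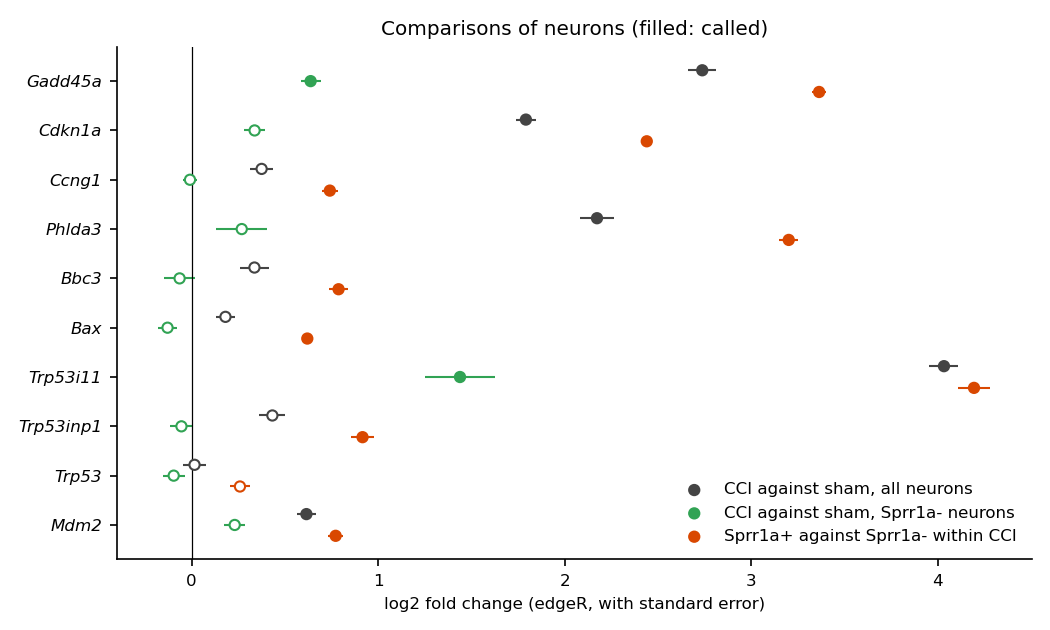
Log2 difference and its standard error for each of the 10 genes in the 3 main comparisons, from edgeR, with filled points for the differences called. *Gadd45a* reads 2.74 for CCI against sham over all neurons, 0.64 in Sprr1a- neurons, and 3.36 between Sprr1a+ and Sprr1a- neurons within CCI; *Trp53* reads 0.02, -0.10, and 0.26.

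Sprr1a- neurons of CCI and of sham were compared to see whether the genes also differed in neurons below the limit on *Sprr1a*. These neurons were not free of the marker: 881 of the 1350 in Male-CCI and 1123 of the 1848 in Female-CCI held at least 1 *Sprr1a* UMI, and *Sprr1a* was 4.83 higher on the log2 scale than in those of sham. This comparison shares the sham libraries, and much of the same cells, with the one over all neurons. Here 2 of the 10 genes rose, *Trp53i11* and *Gadd45a*, where 3.24% of 16407 genes were called higher. *Gadd45a* was at 36.2 and 36.5 CPM in sham and at 54.6 and 60.3 CPM in CCI, a log2 difference of 0.64 ± 0.05 (adjusted p = 0.0033, edgeR). *Trp53i11* was at 1.32 and 1.31 CPM and at 2.96 and 4.28 CPM, a log2 difference of 1.44 ± 0.19 (adjusted p = 0.0072, edgeR). Both genes were higher in each CCI library than in either sham library. In thinned SGC-like cells, *Gadd45a* was also found more often in CCI, at 8.46% and 10.7% against 3.16% and 4.0% in sham. *Trp53i11*, at 5.79% and 4.67% in sham and 3.08% and 8.04% in CCI, overlapped there. The part of RNA from outside the cell in the rise of these genes was not tested. *Cdkn1a*, at 118, 108, 143, and 147 CPM, had a log2 difference of 0.34 (adjusted p = 0.013, edgeR), and *Mdm2*, at 22.0, 22.7, 26.0, and 27.2 CPM, one of 0.23 (adjusted p = 0.033, edgeR), both under the limit. *Phlda3* was at 14.5, 12.1, 18.2, and 14.4 CPM and overlapped between the groups, with a log2 difference of 0.27 (adjusted p = 0.23, edgeR).

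Other genes of injury were also higher in these neurons. Of 10 injury genes 8 were called higher, *Atf3* among them with a log2 difference of 0.62 (adjusted p = 0.0096, edgeR). *Sprr1a* was also among the 8, and as the gene that set the limit it is no result. The 28 and 47 CCI-ind-like neurons below the limit in Male-CCI and Female-CCI held *Gadd45a* at 536 and 472 CPM. With CCI-ind-like neurons left out, an alternative added after the data were seen, the *Gadd45a* difference was 0.34 (adjusted p = 0.022, edgeR) and lost its call. *Trp53i11* (1.12, adjusted p = 0.024, edgeR) was then the 1 gene of the 10 called.

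The size of these differences followed the limit on *Sprr1a*. With neurons of any *Sprr1a* UMI left out, *Gadd45a* differed by 0.15 (adjusted p = 0.061, edgeR) and lost its call, and *Trp53i11* differed by 0.68 and kept it. With the limit at 2, 4 genes were called, at 0.63 for *Phlda3*, 2.11 for *Trp53i11*, 1.06 for *Gadd45a*, and 0.57 for *Cdkn1a*. With each cell thinned to 2000 UMIs, *Gadd45a* (0.73) was the 1 gene called, and *Trp53i11* had too few UMIs to be tested.

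The classes of Sprr1a- neurons in sham differed in their level of several of the genes. Classes come from clustering these cells, without the 10 genes among the 3000 used, so their levels are a description with no test. *Cdkn1a* was at 409 and 335 CPM in C-low-threshold-mechanoreceptor-like (cLTMR-like) neurons of Male-Sham and Female-Sham, and at 426 and 370 CPM in those of CCI. The next class, NP2-like, was at 128 and 98.5 CPM without overlap, and PEP2-like neurons were lowest, at 21.9 and 24.4 CPM, overlapping NF2-like neurons at 23.6 and 33.6 CPM. NF1-like neurons were at 27.9 and 27.0 CPM. *Phlda3* was highest in NF1-like neurons, at 72.4 and 66.4 CPM in sham, and the next class, cLTMR-like, was at 20.7 and 14.7 CPM. *Trp53i11* was highest in PEP2-like neurons, at 10.6 and 8.42 CPM, followed by PEP5-like neurons, at 5.03 and 2.49 CPM. *Gadd45a* was highest in PEP5-like neurons, at 58.4 and 55.4 CPM, above NP2-like neurons at 49.5 and 47.0 CPM, and NP1-like neurons, at 28.0 and 74.1 CPM, overlapped both. PEP3/4-like and NF2-like neurons were low, at 20.0 and 20.9 CPM and at 17.3 and 15.0 CPM.

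Of the other 6 genes, 4 were lowest in NF1- or NF2-like neurons. *Bax* was at 188 to 197 CPM in cLTMR-like and 191 to 192 CPM in NP2-like neurons of sham, which overlapped, and at 81.8 to 85.3 CPM in NF1-like neurons. *Bbc3* was at 15.8 to 19.7 CPM in NP1-like and 3.78 to 4.56 CPM in NF1-like neurons, and *Trp53inp1* at 14.0 to 15.7 CPM and 2.71 to 2.72 CPM in the same classes. *Trp53* was at 22.2 to 24.2 CPM in PEP5-like and 10.1 to 10.6 CPM in NF2-like neurons. *Ccng1* was at 74.3 to 75.2 CPM in PEP5-like and 36.2 to 37.5 CPM in PEP3/4-like neurons. *Mdm2* spanned the narrowest range, from 26.6 to 28.1 CPM in NF1-like to 17.9 to 19.3 CPM in cLTMR-like neurons.

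**Figure D4:**
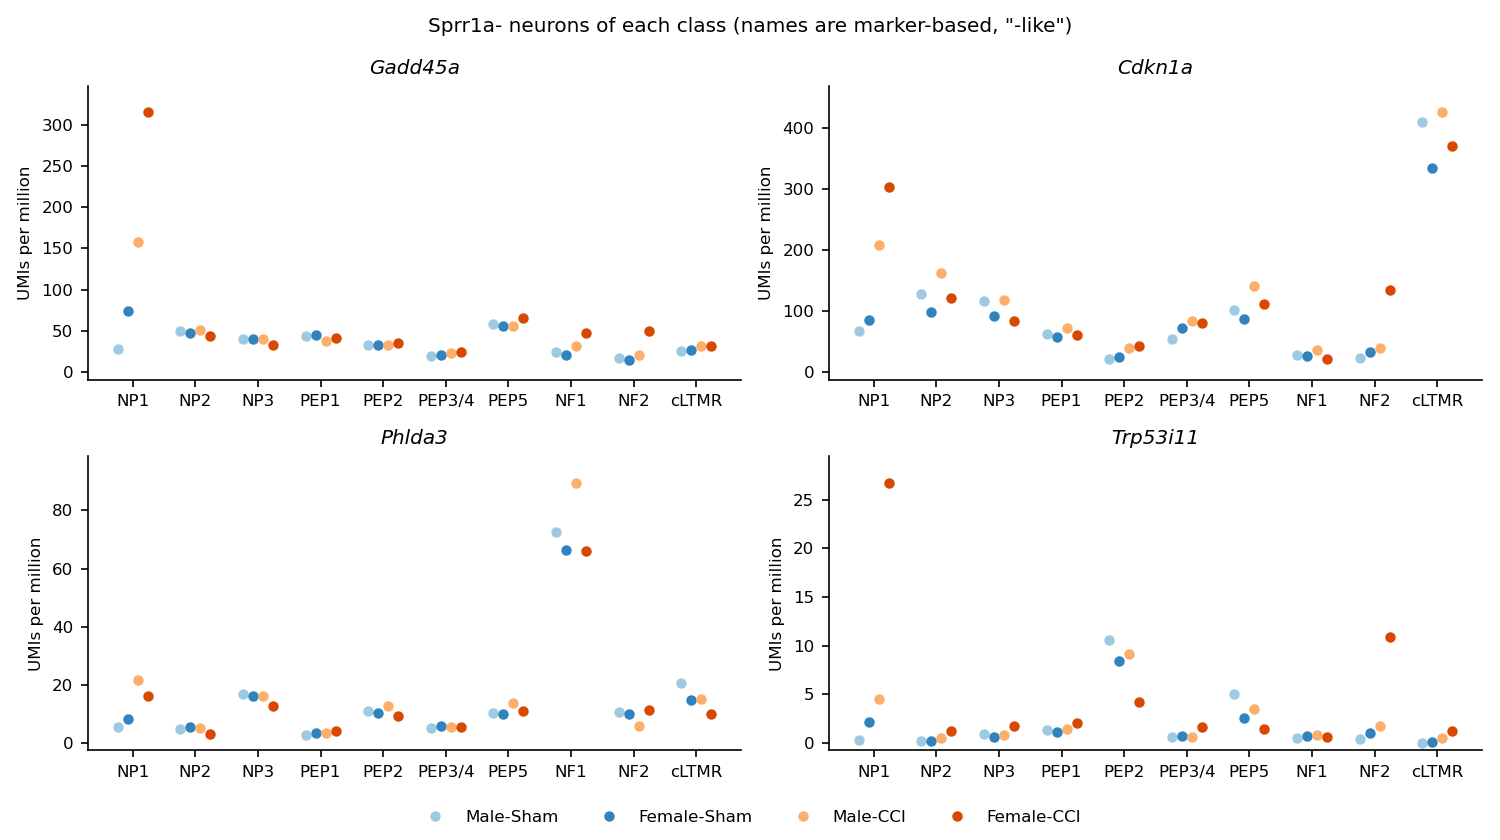
Level of *Gadd45a*, *Cdkn1a*, *Phlda3*, and *Trp53i11* in Sprr1a- neurons of each named class, in CPM, with 1 point for each library. *Cdkn1a* in cLTMR-like neurons (335 to 426) and *Phlda3* in NF1-like neurons (66.1 to 89.6) lie above their other classes in sham and in CCI.

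Injured neurons that kept a class could be compared with sham in 3 classes, their Sprr1a+ neurons in CCI being set against their Sprr1a- neurons in sham. Of the 10 genes, 5 rose in NP1-like neurons, 6 in NF1-like neurons, and 8 in NF2-like neurons, where 21.1%, 21.7%, and 20.6% of all genes tested were called higher. None of the 10 fell. *Gadd45a*, *Cdkn1a*, *Phlda3*, and *Trp53i11* were called in each of the 3 classes. The medians of the 10 genes were 0.67, 1.20, and 1.37 on the log2 scale, against 0.01, -0.06, and -0.02 over all genes. These comparisons share the sham libraries with those of Sprr1a- neurons. NP1-like neurons join 2 clusters, 1 led by *Cd207* with 6, 23, 100, and 120 cells and 1 led by *Sst* and *Nppb* with 82, 63, 29, and 28 cells, so in that class most cells of sham and of CCI lay in different clusters.

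In NF1-like neurons, *Gadd45a* was at 24.3 and 20.3 CPM in Sprr1a- neurons of sham and at 499 and 481 CPM in Sprr1a+ neurons of CCI, and its log2 difference was 4.78 ± 0.11 (adjusted p = 2.69e-12, edgeR). In NF2-like neurons it was at 17.3 and 15.0 CPM and at 300 and 295 CPM, a difference of 4.45 ± 0.12 (adjusted p = 1.14e-08, edgeR). The groups of these classes were far apart. In NP1-like neurons, at 28.0 and 74.1 CPM and at 678 and 635 CPM, the sham libraries spread more, with a difference of 3.79 ± 0.62 (adjusted p = 0.042, edgeR). That call held in 7 of 12 alternatives and was lost with no filter on low counts, with a *Sprr1a* limit of 2, with sex as a block (adjusted p = 0.143, edgeR), and without either CCI library (0.214 without Male-CCI and 0.203 without Female-CCI).

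*Cdkn1a* differed on the log2 scale by 4.56 in NF2-like neurons, 4.14 in NF1-like neurons, and 3.06 in NP1-like neurons. In NF2-like neurons it went from 23.6 and 33.6 CPM to 537 and 593 CPM. *Phlda3* differed by 3.06, 1.63, and 3.59 in the same order, and its smallest difference was in NF1-like neurons, where sham was at 72.4 and 66.4 CPM and CCI at 192 and 143 CPM. *Trp53i11* differed by 6.69, 5.96, and 6.47, from few UMIs in sham: 2 and 5 UMIs in NF2-like neurons, against 351 and 249 UMIs in CCI.

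*Mdm2* rose in NP1-like neurons (0.88) and was not called in NF1-like (0.12) or NF2-like neurons (0.33). *Bax* rose in NF1-like (1.16) and NF2-like neurons (0.67), and *Bbc3* in NF2-like neurons (1.23). *Trp53inp1* rose in NF1-like (1.23) and NF2-like neurons (1.51), and *Ccng1* in NF2-like neurons (0.83). *Trp53* was called in no class, with log2 differences of -0.39 (NP1-like), -0.14 (NF1-like), and 0.41 (NF2-like). Whether a gene differed more in one class than in another was not tested. With total UMIs in place of TMM, calls over all genes went from 2630 higher and 2875 lower to 1612 and 4634 in NF1-like neurons, and from 2413 and 2563 to 1573 and 3749 in NF2-like neurons, with medians over all genes at -0.39 and -0.28. *Bax* in NF2-like neurons (0.41) then lost its call, as it did with the any-UMI limit (0.46). *Trp53inp1* in NF1-like neurons lost its call with DESeq2, with the any-UMI limit, and without either sham library.

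PEP5-like neurons, with 4 and 8 Sprr1a+ cells in Male-CCI and Female-CCI, were too few for this comparison. Cells were also clustered without injury genes, which were left out of the principal components but not of the integration. There 149 and 157 Sprr1a+ neurons of CCI fell among PEP5-like neurons, and 145 and 149 of those were in a cluster led by *Arg2*. Against the Sprr1a- PEP5-like neurons of sham in that clustering, 7 of the 10 genes rose and none fell, where 22.4% of all genes were called higher. *Gadd45a* was at 58.4 and 55.9 CPM in sham and at 661 and 653 CPM in CCI, a log2 difference of 3.82 ± 0.08, and *Cdkn1a* at 102 and 87.8 CPM and at 699 and 719 CPM, one of 3.20 ± 0.08 (adjusted p = 2.54e-22, edgeR). The other 5 genes that rose were *Trp53i11* (4.13), *Phlda3* (2.78), *Bax* (0.91), *Mdm2* (0.88), and *Bbc3* (0.74). *Bbc3* was at 12.7 and 10.0 CPM in sham and at 14.8 and 15.9 CPM in CCI, and it lost its call (0.45, adjusted p = 0.017, edgeR) with total UMIs in place of TMM, where calls over all genes went from 2821 higher and 3025 lower to 1777 and 4633.

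**Figure D5:**
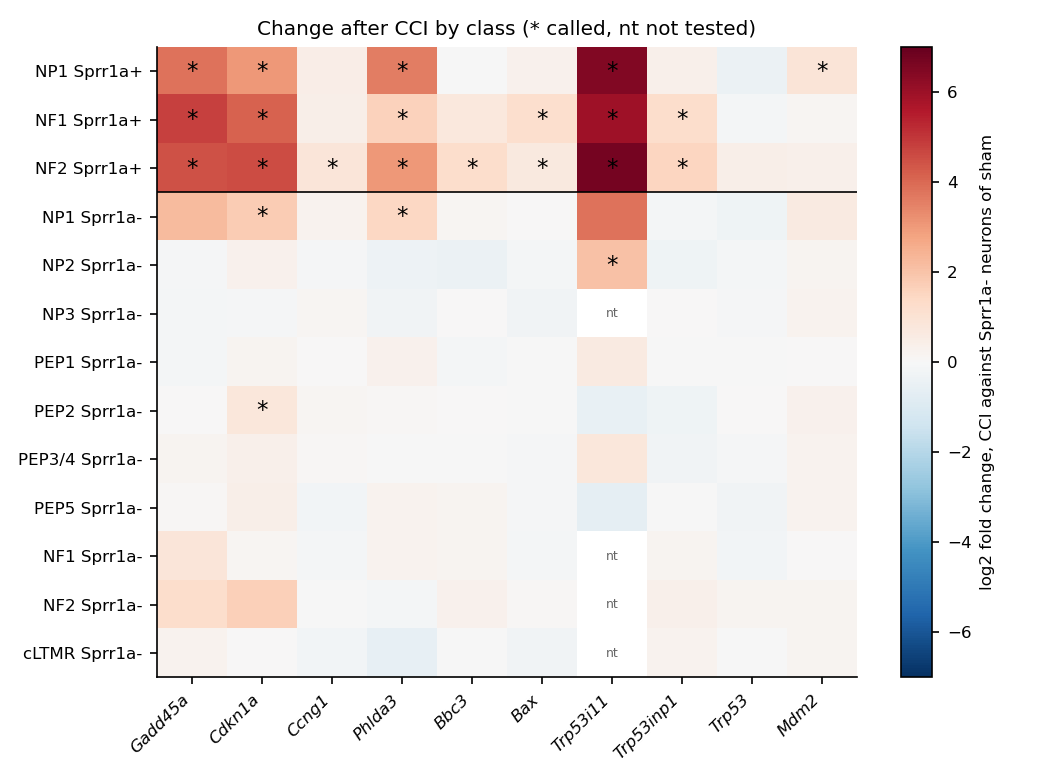
Colour map of the log2 difference of each of the 10 genes (columns) in each class (rows), with Sprr1a+ neurons of CCI in the 3 upper rows, Sprr1a- neurons of CCI in the 10 lower rows, and Sprr1a- neurons of sham as the base of both; a star marks a call by edgeR. *Gadd45a* reads 3.79 to 4.78 in the first set and 0.83 or less in the second, apart from NP1-like (2.24) and NF2-like neurons (1.21), where it was not called.

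Sprr1a- neurons that kept their class showed few calls. NP1-like neurons had 2 of the 10 genes called higher (2.33% of all genes), NP2-like neurons 1 (2.61%), and PEP2-like neurons 1 (2.68%). In cLTMR-like (0.885%), NP3-like (1.58%), NF2-like (1.22%), NF1-like (0.635%), PEP1-like (2.71%), PEP5-like (1.98%), and PEP3/4-like neurons (2.1%), edgeR called 0 of the 10. At an unadjusted p below 0.05 in edgeR, of either direction, those 7 classes had 2, 1, 0, 1, 0, 2, and 2 genes. Apart from those of cLTMR-like neurons, *Bax* in NP3-like (-0.22), *Ccng1* in PEP5-like (-0.20), and *Trp53inp1* in PEP3/4-like neurons (-0.27) were lower. *Gadd45a* in NF1-like (0.83), *Cdkn1a* in PEP5-like (0.39), and *Mdm2* in PEP3/4-like neurons (0.24) were higher. DESeq2 called 1 gene in NF1-like neurons and 0 in the rest. *Trp53i11* had too few UMIs to be tested in NP3-, NF1-, NF2-, and cLTMR-like neurons, so 9 genes were tested there. With total UMIs in place of TMM, higher and lower calls over all genes went from 185 and 126 to 252 and 85 in NP3-like, from 242 and 173 to 285 and 124 in PEP5-like, from 76 and 52 to 63 and 67 in NF1-like, from 137 and 57 to 101 and 72 in NF2-like, and from 110 and 104 to 151 and 66 in cLTMR-like neurons.

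*Cdkn1a* in PEP2-like neurons was at 21.9 and 24.4 CPM in sham and at 38.7 and 43.0 CPM in CCI. The groups did not overlap, its log2 difference was 0.81 ± 0.11 (adjusted p = 3.86e-05, edgeR), and it was called in 12 of 12 alternatives, at 0.72 to 0.92. PEP2-like neurons held next to no Sprr1a+ cells: 0, 1, 0, and 0 of 235, 497, 137, and 174. *Gadd45a* in NF1-like neurons, at 24.3, 20.3, 31.6, and 47.8 CPM, had a log2 difference of 0.83 ± 0.19 (adjusted p = 0.067, edgeR), was not called, and passed in 7 of 12 alternatives. In cLTMR-like neurons, where *Cdkn1a* was highest, its difference was 0.05 ± 0.10 (adjusted p = 0.83, edgeR), and in PEP5-like neurons it was 0.39 (adjusted p = 0.029, edgeR), under the limit. PEP3/4-like neurons were at 54.6 to 71.7 CPM for *Cdkn1a* in sham and at 80.4 to 83.5 CPM in CCI. That difference was 0.36 (adjusted p = 0.30, edgeR), and the one in NP3-like neurons was -0.10 (adjusted p = 0.81, edgeR).

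In NP1-like neurons *Cdkn1a* went from 66.9 and 84.8 CPM to 209 and 304 CPM (1.76 ± 0.23, adjusted p = 0.0100, edgeR) and *Phlda3* from 5.45 and 8.23 CPM to 21.4 and 16.0 CPM (1.47 ± 0.30, adjusted p = 0.0068, edgeR). These sums rested on 83, 71, 31, and 35 cells, and with any *Sprr1a* UMI as the limit *Cdkn1a* differed by 0.03 and *Phlda3* could not be tested. *Cdkn1a* also lost its call with a limit of 2, and *Phlda3* without Male-Sham. *Gadd45a* in the same cells was at 28.0, 74.1, 157, and 315 CPM, a log2 difference of 2.24 ± 0.85 that was not called (adjusted p = 0.39, edgeR). With sex as a block it was called (2.25 ± 0.14, adjusted p = 5.77e-24, edgeR), as were *Trp53i11* (3.67) and *Mdm2* (0.64). *Trp53i11* in NP2-like neurons rested on 6, 6, 6, and 13 UMIs (2.04 ± 0.57, adjusted p = 0.021, edgeR), and its call was lost with the any-UMI limit and without Male-Sham, Female-Sham, or Female-CCI.

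CCI-ind-like neurons, 3 clusters (led by *Anxa1*, *Wfdc3*, and *Crh*) that CCI libraries dominate with 993 and 1198 cells in all against 40 and 133 in sham, held *Gadd45a* and *Cdkn1a* at like levels on either side of the *Sprr1a* limit, a comparison with no test. Within these clusters in CCI, the 28 and 47 Sprr1a- neurons were at 536 and 472 CPM for *Gadd45a*, and the Sprr1a+ neurons at 522 and 553 CPM. *Cdkn1a* was at 723 and 734 CPM against 761 and 743 CPM, and *Phlda3* at 141 and 152 CPM against 171 and 161 CPM. *Trp53i11* was lower in the Sprr1a- neurons, at 32.3 and 29.8 CPM against 52.9 and 56.3 CPM. The sham cells of these clusters were at 545 and 461 CPM for *Gadd45a*, overlapping CCI.

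Clusters without a class name that came almost wholly from CCI also held the genes. Neurons led by *Ly6a* (4, 2, 141, and 264 cells) were at 410 and 364 CPM for *Gadd45a*, 591 and 625 CPM for *Cdkn1a*, 43.0 and 43.9 CPM for *Phlda3*, and 72.6 and 80.3 CPM for *Trp53i11* in Male-CCI and Female-CCI. Those led by *Arg2* (1, 6, 150, and 156 cells) were at 664 and 646 CPM, 694 and 721 CPM, 59.5 and 56.4 CPM, and 52.97 and 51.0 CPM for the same genes. *Phlda3* was thus lower in both than in CCI-ind-like neurons, at 170 and 160 CPM, in each library.

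Within a class of CCI, Sprr1a+ neurons were above Sprr1a- neurons for *Gadd45a* in each library: 678 and 635 CPM against 157 and 315 CPM in NP1-like, 499 and 481 CPM against 31.6 and 47.8 CPM in NF1-like, and 300 and 295 CPM against 20.4 and 50.0 CPM in NF2-like neurons. In log2 ratios this was 2.11 and 1.01, 3.98 and 3.33, and 3.88 and 2.56. *Trp53i11* had ratios of 4.26 and 1.86, 5.11 and 5.78, and 4.94 and 2.49. *Trp53* had ratios on both sides of 0, from -0.43 to 0.22, in the same 3 classes.

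Lists of related genes from knowledge of the pathway show what else of it differed over all neurons. They too were chosen with earlier results of these data known. Of 25 other p53 target genes, 7 rose and 3 fell, with a median log2 difference of -0.01, equal to that over all genes. For this and the next lists over all neurons the background is the 15.2% of all genes called higher and 12.7% called lower. *Pmaip1*, the BH3-only protein Noxa, was at 0.468 and 0.464 CPM in sham and 3.96 and 3.71 CPM in CCI (3.09 ± 0.12, adjusted p = 1e-05, edgeR). *Sesn2*, a stress-induced regulator of mTOR signalling, was at 1.57, 1.95, 6.36, and 7.15 CPM (1.99), and *Gdf15*, a secreted stress factor, at 0.431, 0.712, 3.09, and 3.21 CPM (2.50). *Eda2r*, a receptor of the tumour necrosis factor family, had 2 and 1 UMIs in sham and 50 and 43 UMIs in CCI, a ratio of 33.8 (95% exact interval 11.2 to 167, counting error only). *Tnfrsf10b*, a death receptor, rested on 11, 19, 41, and 34 UMIs (1.50, adjusted p = 0.0062, edgeR). The other genes of the list that were called, named after their values were seen, were *Aen* and *Apaf1*, which rose, and *Fas*, *Plk2*, and *Sesn1*, which fell.

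Genes of DNA repair moved little. Of 28, 0 rose and 1 fell in edgeR and in DESeq2 (5 higher and 5 lower at an unadjusted p below 0.05 in edgeR). The gene that fell was *Fancd2* of the Fanconi anaemia pathway, at 0.961, 1.01, 0.449, and 0.488 CPM (-1.02 ± 0.16, adjusted p = 0.0019, edgeR), and the median was 0.08. Of 15 regulators and relatives of p53 tested, 1 rose, the checkpoint kinase *Chek2*, at 0.610, 0.470, 0.854, and 0.750 CPM (0.63, adjusted p = 0.028, edgeR). Of 10 *Gadd45* family members and cyclin-dependent kinase inhibitors, a list that holds *Gadd45a* and *Cdkn1a*, 6 rose in edgeR and 5 in DESeq2, with a median of 1.00. Besides those 2, *Cdkn2a* was at 0.481, 0.369, 2.57, and 3.34 CPM (2.86), *Cdkn2b* at 2.63, 2.29, 8.56, and 7.85 CPM (1.80), and *Gadd45g* at 221, 256, 497, and 581 CPM (1.23). Of 15 *Bcl2* family genes tested, 3 rose and 1 fell: *Pmaip1*, *Hrk* (0.943, 1.96, 9.72, and 10.6 CPM, 2.84), and *Bcl2l11* (2.20, 2.61, 3.91, and 4.59 CPM, 0.87) are pro-apoptotic, and *Bcl2l2* (44.1, 42.6, 28.3, and 27.4 CPM, -0.58) is pro-survival. Of 12 proliferation genes 1 rose, *Top2a*, on 14, 3, 25, and 30 UMIs, and DESeq2 called 0 of the 12 higher. Of 10 genes of the response to tissue dissociation 1 rose, *Dusp1* (0.56), and 4 fell, *Fos*, *Fosb*, *Hspa1a*, and *Hspa1b* (-0.87 to -0.57).

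Within CCI libraries, Sprr1a+ against Sprr1a- neurons, 8 of the 25 other p53 targets rose and 7 fell (median -0.06), 2 of 28 DNA repair genes rose and 4 fell (-0.01), and 6 of 15 *Bcl2* family genes rose and 4 fell (0.44), where 20.9% of all genes were called higher and 24.7% lower. In Sprr1a- neurons of CCI against sham, 1 of 24 other p53 targets, 0 of 28 DNA repair genes, and 0 of 15 *Bcl2* family genes rose. DESeq2 also called 0 higher in the last 2 lists, and 4 and 3 genes were higher at an unadjusted p below 0.05 in edgeR. Of 8 satellite glia markers 0 rose and 3 fell over all neurons, in edgeR and in DESeq2, with 1 higher at an unadjusted p below 0.05. Of the other markers tested, 0 of 3 for Schwann cells (0 also in DESeq2 and at an unadjusted p below 0.05), 2 of 8 for immune cells, 3 of 5 for fibroblasts, and 2 of 4 for endothelium rose, the last with *Flt1* at 0.031, 0.026, 1.84, and 2.66 CPM. Within CCI, 4 of 8 immune markers (median 1.28), 3 of 5 fibroblast markers (1.30), and 2 of 4 endothelial markers (0.40) were higher in Sprr1a+ neurons. Immune markers summed there to 7.79 and 10.9 CPM in Male-CCI and Female-CCI, against 5.21 and 3.72 CPM in Sprr1a- neurons. Fibroblast markers summed to 8.48 and 8.99 CPM against 5.48 and 6.18 CPM, and endothelial markers to 51.7 and 54.8 CPM against 66.6 and 71.3 CPM. The part of these markers in the results was not tested.

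Over 52 sums of a library and a class with at least 10 neurons, the genes whose log2(CPM + 1) went most closely with *Gadd45a* among 12959 genes were *Fgf3* (Pearson's r = 0.954), *Tnnc1* (0.942), *Slc15a3* (0.940), *Gpr151* (0.939), and *Cckbr* (0.937). Those for *Cdkn1a* were *Arpc2* (0.892), *Eif6* (0.889), *Gm42517* (0.889), *Psmd13* (0.887), and *Eif1* (0.884). The sums share libraries and depth, so these are descriptions of likeness.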

How the data were processed

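Single-cell RNA-seq was analysed from 4 libraries (1 of each sex after sham surgery and after CCI). The deposited matrices hold raw UMI counts, whole numbers for each gene in each called cell, that the authors made with Cell Ranger against mm10, not normalized and not filtered. Their headers name Cell Ranger 3.0.2, the submitters' processing notes 2.1.1, and the methods another version.

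Doublets were scored with Scrublet (scanpy 1.11.5, expected rate 0.1). From each library, as many top-scoring cells were dropped as the study states. Kept cells had at least 1500 genes and at most 10% of UMIs from mitochondrial genes. Seurat 5.3.0 was used for integration (3000 variable genes) and for clustering on 20 principal components at resolution 0.8. Of the 10 genes, 4 were among the variable genes, and all 10 were left out of the clustering. Clusters were named X-like from class markers.

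For each library, the UMIs of a group's cells were added up per gene, and the sums were compared with edgeR 4.0.16 (robust quasi-likelihood test, filterByExpr, TMM), with Benjamini-Hochberg adjustment over all genes tested and a call at adjusted p below 0.05 and an absolute log2 fold change above 0.5. In all, 16 comparisons were fitted. PEP5-like Sprr1a+ neurons were to be compared at resolution 0.4 but held fewer than 10 cells there, so their values come from the clustering without injury genes. With 2 libraries against 2, p-values measure the spread between pooled libraries of unlike sex and not between mice. Within CCI the test set 2 sums against each other in each of 2 libraries. Those p-values rest on how alike the 2 differences were and on spread borrowed from other genes, and not on mice. Sums were used from at least 10 cells. Over all neurons, 3 UMIs correspond to 0.0158 to 0.0188 CPM. Other settings tried were RLE scaling, no filter on low counts, DESeq2 1.42.0, total UMIs in place of TMM and CCI-ind-like neurons left out of the Sprr1a- sums (both added after the data were seen), sex as a replicate block, each library left out, cells thinned to 2000 UMIs, doublets kept, *Sprr1a* limits of 2 or any UMI, and classes from a clustering without injury genes. That clustering left out of its principal components those variable genes that were among 1026 injury genes. The integration before it still used them. The fits were tested on simulated data.

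The 10 genes and the gene lists were chosen with earlier results of these data known. Named in the text were the 10 genes, the 5 genes of each other list that changed most in size while called and of 1 direction in both sexes, the 5 genes most correlated with *Gadd45a* or *Cdkn1a*, 5 other p53 targets named after their values were seen, and *Sprr1a*, *Atf3*, and *Tubb3* as checks, *Tubb3* being 0.90 higher in CCI over all neurons. Promoter windows came from RefSeq (GRCm38.p6) and were found for 9 of the 10 genes. R 4.3.3 and Python 3.11.15 were used, with pandas 2.3.3, matplotlib 3.10.9, scipy 1.17.1, and numpy 2.4.6.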

Additional observations from a re-analysis of the deposited data

How the results depend on the processing

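No value of the 10 genes that was called changed sign in any of the alternatives run. Of the counts of these genes called, 160 stayed within 1.5 times the main count and 29 did not. Over all neurons the 5 calls held in 11 of 11 alternatives, but with cells thinned to 2000 UMIs the calls over all genes went from 2614 higher and 2183 lower to 1433 and 1276.

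In Sprr1a- neurons the 2 calls became 1 with thinned cells, 4 with a *Sprr1a* limit of 2, 1 with the limit at any UMI, and 1 with CCI-ind-like neurons left out. Over all genes, 531 higher and 204 lower became 186 and 133 with thinned cells, and the lower calls were 374 with the any-UMI limit. Leaving out 1 library gave 222 to 480 higher (222 without Female-CCI, 266 without Male-Sham, 336 without Female-Sham) and 103 to 224 lower, 103 without Female-CCI. Within CCI, 3394 higher and 4007 lower became 2052 and 2421 with thinned cells, and the lower calls were 2409 with the any-UMI limit.

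By class, in Sprr1a- neurons, the count of the 10 genes called went from 2 to 1 with DESeq2 (which gave *Phlda3* no adjusted p) and to 0 with the any-UMI limit in NP1-like neurons, with 2 to 4 over left-out libraries (4 without Female-Sham). In NP2-like neurons it went from 1 to 0 with DESeq2 (which gave *Trp53i11* no adjusted p) and with the any-UMI limit. The *Trp53i11* call there was also lost without Male-Sham, Female-Sham, or Female-CCI. *Bbc3* in NP2-like neurons was lower in each of 12 alternatives (-0.65 to -0.12), and its 1 call was a fall. Left-out libraries gave 1 to 2 in PEP2-like (2 without Male-CCI), 0 to 1 in PEP3/4-like (1 without Female-Sham), 0 to 1 in PEP5-like (1 without Female-CCI), 0 to 1 in NF1-like (0 without Female-CCI, 1 without each of the others), 0 to 3 in NF2-like (3 without Male-CCI), and 0 to 2 in cLTMR-like neurons (2 without Female-Sham), where the lone library of a group was assumed to vary like the other group. From 0, the count was 1 in PEP5-like neurons with classes clustered without injury genes, 1 in NF1-like neurons with DESeq2 and with no filter, 1 in NF2-like and 2 in cLTMR-like neurons with no filter, and 2 in NF2-like neurons and 2 in NF1-like neurons with the limit of 2. Not all calls in these counts were rises. *Phlda3* in cLTMR-like neurons (-0.90 to -0.28) and *Trp53i11* in PEP2-like neurons (-1.15 to -0.03) were lower in each of 12 alternatives. Any call of these 2 genes there was a fall. The cause of the differences between settings was not tested.

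Libraries of 1 number in sham and CCI share only the label of their sex. Across genes, the male minus female deviation in sham went with that in CCI (r = 0.57 over all neurons, 0.60 in Sprr1a- neurons, across genes, which are not independent). With sex as a replicate block the count of the 10 genes called was 5 over all neurons and 2 in Sprr1a- neurons, 5 in NP1-like (*Cdkn1a*, *Phlda3*, *Gadd45a*, *Trp53i11*, and *Mdm2*), 1 in NF1-like, 2 in NF2-like, and 1 in cLTMR-like Sprr1a- neurons, and all-gene calls in Sprr1a- neurons were 751 higher and 326 lower. Depth limits *Trp53i11*, *Eda2r*, and the small classes most.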
